A study of Mus musculus with 4 samples.

Results

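FAIRE-seq had been used to map accessible chromatin at 10 genes through which Ras-ERK signaling limits itself or reads out its activity (Dusp4, Dusp5, Dusp6, Spry1, Spry2, Spry4, Spred1, Spred2, Phlda1 and Egr1). FAIRE-seq recovers and sequences the DNA that escapes formaldehyde crosslinking to nucleosomes, so that its peaks mark open promoters and enhancers. The genes are given by name, and the rule that assigns regions to them uses no measured value. The choice of the genes was made with earlier results of these data known. All peaks that overlapped the gene body or the 50 kb before the gene start were taken as theirs. Peaks of the 4 libraries were merged where they overlapped by at least 1 bp, which gave 23 regions at the 10 genes, of 35796 regions in all.

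All 4 libraries came from EpRas cells, a line of mouse mammary gland epithelial cells (EpH4) that carries active H-Ras, so the Ras-transformed state was common to every group. Cells were transfected with a control siRNA (siControl) and left untreated, transfected with siControl and given TGF-β at 1 ng/ml, or given TGF-β together with either of 2 siRNA sets against both Etv4 and Etv5 (siEtv4/5 set 1 and set 2), and were harvested at day 4. Etv4 and Etv5 are ETS family transcription factors. Each group was a single peak list, so no replicate spread could be measured, no test of a condition was made, and all intervals below cover counting error only. EpRas is 1 transformed line, and the level of Etv4 or Etv5 is not measured by these libraries.

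ERK, the last kinase of the Ras-Raf-MEK-ERK cascade, induces transcription of the proteins that shut the cascade down. Dual-specificity phosphatases remove phosphate from ERK, in the nucleus (Dusp4 and Dusp5) or in the cytoplasm (Dusp6). Sprouty and Spred proteins act upstream, between growth factor receptors, Ras and Raf. Phlda1 and Egr1 are widely used readouts of ERK output, Egr1 as an immediate-early zinc-finger transcription factor and Phlda1 as a pleckstrin homology-like domain protein. Such genes are classically induced through serum response factor (SRF), which binds the CArG box together with ETS partners, and through AP-1, the Jun-Fos dimer that ERK signaling feeds.

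The untreated siControl list held 22247 peaks, the TGF-β-treated siControl list 28754, set 1 22516 and set 2 14925, from an estimated depth of 15.3 to 20.7 M reads. The shortest list came from the deepest library, and its median fold enrichment (summit signal over local background, the peak caller's ratio) was also the lowest, 7.15 against 7.91 to 8.44. Of 5 epithelial marker genes, Krt8, Krt18, Epcam, Cdh1 and Cldn4, all had a promoter region in the untreated library, 3 in TGF-β-treated siControl, 3 with set 1 and 2 with set 2. Of 8 markers of blood, endothelium, muscle, neuron and liver, 1 (Pecam1) had a promoter region, and that in TGF-β-treated siControl alone. The part that depth and these marker promoters have in the values below was not tested.

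The sequences of 8 regions are printed here with the letters of each matched motif in capitals. They are 1 promoter with SRF boxes and 7 intronic or upstream regions with AP-1, ETS or RUNX letters. SRF, ETS and AP-1 are the motifs named above for ERK output, and RUNX is not among them. The Spred2 region at 68.7 kb holds RUNX letters alone. The first 5 are regions that the rule for naming regions picks and that hold a motif, and the other 3 were added after their motifs were seen. Motifs were sought on both strands in 300 bp centred on the summit of the strongest peak, as TGANTCA for AP-1, CCGGAAG or CAGGAAG for ETS, TGTGGT for RUNX, TGACGTCA for the cyclic AMP response element, GCGTGGGCG for Egr1 itself, and the CArG box. All are the plus strand of GRCm38 (mm10), which is the coding strand of these genes, and the Dusp5 promoter stretch stops at the base before the gene start.
Dusp5 promoter, chr19:53528889-53529108, with adjacent CArG boxes: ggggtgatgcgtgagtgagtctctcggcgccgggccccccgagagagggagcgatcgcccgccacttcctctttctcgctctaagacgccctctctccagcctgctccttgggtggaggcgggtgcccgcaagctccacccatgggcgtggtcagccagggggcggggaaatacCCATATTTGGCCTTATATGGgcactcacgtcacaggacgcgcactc
Dusp4 intron, chr8:34815209-34815508, with AP-1 and ETS: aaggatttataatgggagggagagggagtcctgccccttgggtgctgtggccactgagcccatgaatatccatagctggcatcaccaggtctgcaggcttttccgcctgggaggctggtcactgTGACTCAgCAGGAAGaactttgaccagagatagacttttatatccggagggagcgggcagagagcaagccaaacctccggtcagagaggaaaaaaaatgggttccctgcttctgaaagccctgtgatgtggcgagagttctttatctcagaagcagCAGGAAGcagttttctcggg
Dusp6 12.3 kb upstream, chr10:99250805-99251104, with AP-1: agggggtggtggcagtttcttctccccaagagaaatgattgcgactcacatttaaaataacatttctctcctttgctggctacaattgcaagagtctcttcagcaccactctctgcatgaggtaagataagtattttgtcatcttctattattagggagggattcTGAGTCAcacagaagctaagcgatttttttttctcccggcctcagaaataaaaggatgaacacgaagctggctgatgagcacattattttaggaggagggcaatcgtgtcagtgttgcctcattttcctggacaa
Spred2 intron at 68.7 kb, chr11:19992877-19993176, with RUNX on the minus strand: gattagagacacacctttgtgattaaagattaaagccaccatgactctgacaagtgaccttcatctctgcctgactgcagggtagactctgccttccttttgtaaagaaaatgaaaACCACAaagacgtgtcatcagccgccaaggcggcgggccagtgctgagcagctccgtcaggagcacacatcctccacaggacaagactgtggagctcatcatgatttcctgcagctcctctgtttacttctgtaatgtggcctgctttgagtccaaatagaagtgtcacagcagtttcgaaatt
Dusp5 intron, chr19:53532087-53532386, with AP-1 and with RUNX on the minus strand: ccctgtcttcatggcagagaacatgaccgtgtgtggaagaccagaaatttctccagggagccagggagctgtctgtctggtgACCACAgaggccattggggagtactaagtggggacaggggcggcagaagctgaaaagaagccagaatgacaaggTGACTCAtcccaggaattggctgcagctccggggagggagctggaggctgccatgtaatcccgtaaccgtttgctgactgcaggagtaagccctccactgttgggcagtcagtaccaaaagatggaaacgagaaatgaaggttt
Dusp6 21 kb upstream, chr10:99242110-99242409, with AP-1, ETS and RUNX: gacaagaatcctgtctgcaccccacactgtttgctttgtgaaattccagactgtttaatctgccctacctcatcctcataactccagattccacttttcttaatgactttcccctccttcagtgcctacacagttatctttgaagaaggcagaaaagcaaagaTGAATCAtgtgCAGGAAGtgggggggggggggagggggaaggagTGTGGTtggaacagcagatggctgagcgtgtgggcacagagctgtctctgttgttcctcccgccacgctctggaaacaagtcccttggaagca
Spred2 intron at 37.0 kb, chr11:19961198-19961497, with RUNX and AP-1: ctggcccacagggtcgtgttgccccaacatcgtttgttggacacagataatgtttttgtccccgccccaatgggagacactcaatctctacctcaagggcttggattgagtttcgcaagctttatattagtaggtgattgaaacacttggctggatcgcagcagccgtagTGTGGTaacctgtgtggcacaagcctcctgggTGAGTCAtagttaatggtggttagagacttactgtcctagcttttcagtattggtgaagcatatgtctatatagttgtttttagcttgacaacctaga
Spred2 intron at 55.1 kb, chr11:19979399-19979698, with ETS and AP-1 at 2 places: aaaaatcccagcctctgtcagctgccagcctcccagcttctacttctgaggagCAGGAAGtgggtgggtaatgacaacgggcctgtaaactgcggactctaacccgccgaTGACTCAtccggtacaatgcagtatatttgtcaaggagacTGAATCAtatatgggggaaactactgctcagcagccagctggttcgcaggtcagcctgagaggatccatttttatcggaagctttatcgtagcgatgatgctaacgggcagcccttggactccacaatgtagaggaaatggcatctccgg

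The Dusp5 promoter was the only one of the 23 regions with a CArG box, and it held 2 of them directly side by side, centred 41 and 31 bp before the gene start. A CArG box was present in 1.69% of all 35789 regions searched, and at least 2 boxes in 9 of them. In the 300 bp before the gene start, Dusp5 was likewise the only gene of the 10 with a CArG box, which 1.57% of 21938 protein-coding genes had. No AP-1, ETS, RUNX, cyclic AMP response element or Egr1 letters were found in that stretch at any of the 10 genes. Over all protein-coding genes the shares were 7.16%, 19.1%, 15.8%, 2.03% and 0.67% in the same order. With 10 genes, the distance from these shares was not tested. The search for ETS covered CCGGAAG and CAGGAAG only, so other forms of an ETS site would have been missed.

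AP-1 letters were in 8 of the 23 regions (34.8%, against 40.4% of all regions), and all 8 lay outside promoters. ETS letters were in 3 regions (13.0%, against 22.4%) and RUNX letters in 6 (26.1%, against 25.8%). In the Dusp4 intron the AP-1 match ended 1 base before an ETS match, and 21 kb upstream of Dusp6 they were 4 bases apart. AP-1 and ETS letters within 10 bases of each other were found in 408 of the 35789 regions (1.14%). This spacing, and the count of paired CArG boxes, were examined after the sequences had been seen. A match describes letters only, not a bound factor, and the absence of one covers only the window and the exact letters searched.

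The 10 genes held 18 peaks in untreated cells, 19 with TGF-β, 14 under set 1 and 12 under set 2, or 0.0809%, 0.0661%, 0.0622% and 0.0804% of the lists. The most frequent pattern was a call in all 4 libraries, and 7 regions were called in 1 library. Of the 23 regions, 11 were called in every library (47.8%), against 29.6% of all regions. A promoter region called in every library was present at 5 of the 10 genes (Dusp5, Dusp6, Spry1, Spry4 and Egr1), against 23.1% of protein-coding genes. At the other end, Spry2 and Spred1 had no region in any library, as had 27.1% of protein-coding genes. No interval was computed for these shares, which rest on 23 regions and 10 genes, so their distance from the shares over all was not tested. Windows held 3.18 regions per 100 kb, against 2.46 over all protein-coding genes and 3.33 to 7.46 at the other lists of pathway genes given below. The median fold enrichment at these genes was below that of all peaks in each library, by value. It was 7.95 against 8.19 in untreated cells, 7.87 against 8.44 with TGF-β, 7.12 against 7.91 under set 1 and 6.51 against 7.15 under set 2.

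**Figure D1:**
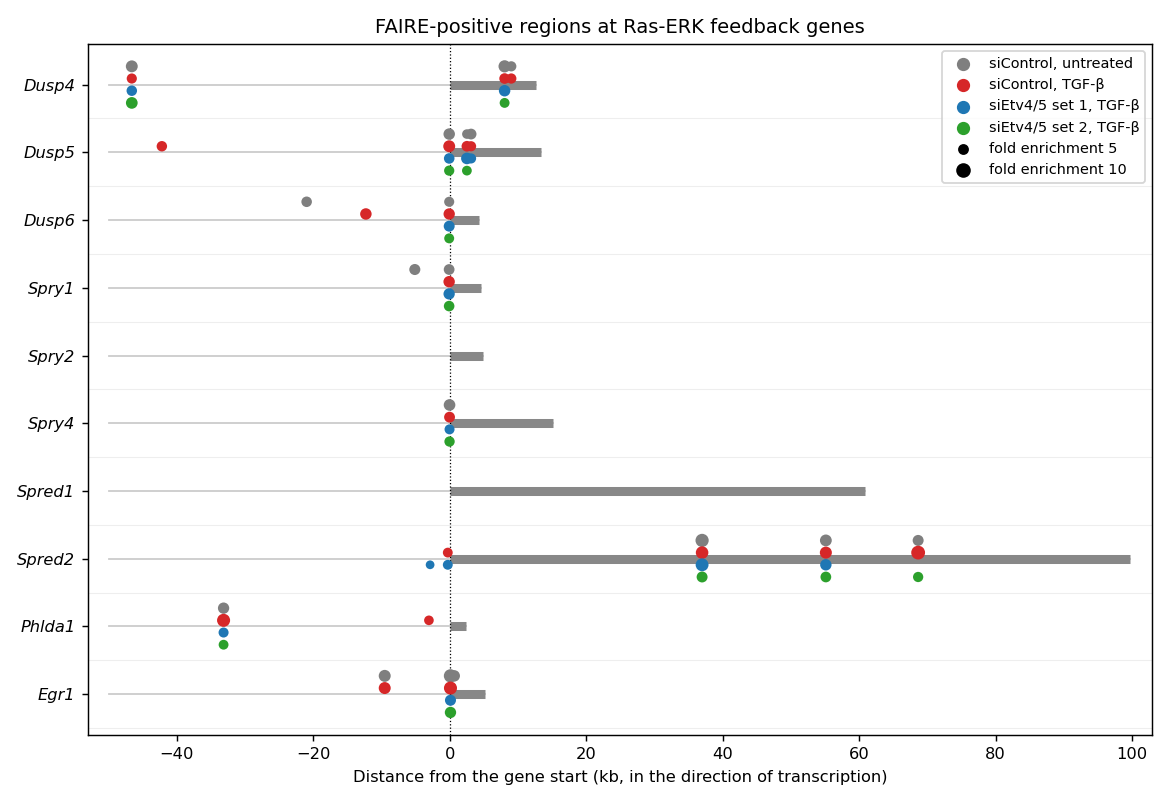
FAIRE-positive regions at the 10 genes by distance from the gene start (kb, x axis), 1 row per gene, with the gene body as a thick bar and the 50 kb before it as a thin line. Each dot is a peak of 1 library (color) and its area is proportional to fold enrichment. The 4 dots stand together at the starts of Dusp5, Dusp6, Spry1, Spry4 and Egr1, and the rows of Spry2 and Spred1 are empty.

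The nuclear phosphatase gene Dusp4 (gene start at chr8:34807297) had 3 regions and none of them at its promoter. The region with the highest fold enrichment lay in an intron 8.05 kb downstream of the start (chr8:34815235-34815463), the one with AP-1 and ETS letters 1 base apart. Its fold enrichment was 9.13 in untreated siControl, 6.92 in TGF-β-treated siControl, 8.07 with set 1 and 6.01 with set 2. The summit held 30 fragments in untreated cells (95% Poisson interval 20.2 to 42.8), 27 with TGF-β (17.8 to 39.3), 26 under set 1 (17 to 38.1) and 25 under set 2 (16.2 to 36.9). All 4 intervals overlapped, and the untreated library was highest. The upstream region at 46.6 kb (chr8:34760583-34760836, with AP-1 and RUNX letters) showed 8.67, 6.35, 6.74 and 8.42 in the same order. It was the only region of the 10 genes whose fold enrichment was higher with set 2 than in TGF-β-treated siControl, by 0.41 on the log2 scale, although its fragments per 1 M reads differed by a ratio of 1.16 with an interval of 0.601 to 2.29. A weaker intronic region 9.03 kb from the start (chr8:34816256-34816398) was called at 6.38 in untreated cells and 6.48 with TGF-β, and in neither siRNA set.

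Dusp5, which dephosphorylates ERK in the nucleus, had 4 regions (gene start at chr19:53529109). Its promoter region (chr19:53528936-53529148), with the paired CArG boxes printed above, was called in every library. Fold enrichment there was 8.07 in untreated cells, 8.72 with TGF-β, 6.88 under set 1 and 6.43 under set 2, on 33, 41, 29 and 28 summit fragments. The 41 fragments with TGF-β were the most at any region of the 10 genes. Per 1 M reads the promoter had 2.52 fragments with TGF-β (1.81 to 3.42), 1.68 under set 1 (1.12 to 2.41) and 1.36 under set 2 (0.901 to 1.96). The ratio of set 2 to siControl was 0.538 (0.320 to 0.891), and this interval held the median ratio of all regions, 0.630.

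Inside Dusp5, an intronic region 2525 bp from the start (chr19:53531519-53531749) was also called in every library. Its fold enrichment was 5.62 in untreated cells, 6.99 with TGF-β, 8.25 under set 1 and 5.84 under set 2, so set 1 was the highest library here. None of the motifs was found in it. The neighboring region 3.14 kb from the start (chr19:53532149-53532344, with AP-1 and RUNX letters) had 7.18, 6.36 and 6.30 in the first 3 libraries on 33, 33 and 29 fragments, and was not called with set 2, where a call would have needed about 21 fragments. An upstream region at 42.2 kb (chr19:53486847-53487010, with AP-1 letters) was called in TGF-β-treated siControl alone, on 17 fragments and at 6.69.

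Dusp6, the cytoplasmic ERK phosphatase (gene start at chr10:99263231), combined a constant promoter with upstream regions that each belonged to 1 siControl library. The promoter region (chr10:99263008-99263316) had a fold enrichment of 6.24 in untreated cells, 7.87 with TGF-β, 7.36 under set 1 and 6.07 under set 2. The 4 summits held 24, 34, 31 and 28 fragments, and the TGF-β library was highest, at 2.09 per 1 M reads with an interval of 1.45 to 2.92 that overlapped the untreated 1.01 to 2.34. The upstream region at 12.3 kb (chr10:99250824-99251081) was called in TGF-β-treated siControl alone, at 8.10 on 24 fragments, while a call would have needed about 13 fragments in untreated cells, 14 under set 1 and 15 under set 2. At 21 kb upstream, a region (chr10:99242160-99242380, with the AP-1 and ETS letters 4 bases apart) was called in untreated cells alone, at 6.80 on 20 fragments.

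Among the Sprouty genes, whose products restrain receptor tyrosine kinase signaling, Spry1 and Spry4 had a promoter region in every library and Spry2 had no region. The Spry1 promoter (chr3:37639784-37639954) had 7.10, 8.00, 7.85 and 6.88 in the order untreated, TGF-β, set 1 and set 2. Its summit held 19, 22, 22 and 21 fragments, with no library apart from the others. A second Spry1 region 5.11 kb upstream (chr3:37634775-37634904) was called in untreated cells alone, at 7.51. The Spry4 promoter (chr18:38601329-38601537, 18 bp before the gene start) had 8.31, 7.24, 6.13 and 6.55 on 22, 20, 15 and 18 fragments. Both siRNA libraries were below both siControl libraries there. The interval of the 15 fragments with set 1 (8.40 to 24.7) nevertheless overlapped that of the 22 in untreated cells (13.8 to 33.3). Relative to TGF-β-treated siControl, 38.8% of all regions called in both libraries had a lower ratio of fold enrichment than this promoter with set 1. With set 2 it was 77.6%. For Spry2, the nearest region lay 5.66 kb downstream of the gene start, beyond the gene end, and was called in 1 library. The nearest one upstream was 115 kb away.

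The Spred genes, whose products block Ras-dependent activation of Raf, stood at opposite ends. Spred1 had no region in its 111 kb window, and the nearest regions were 132 kb upstream and 110 kb downstream of the gene start. Spred2 had 5 regions, the most of any of the 10 genes, in the longest window (150 kb). Of these, 3 were intronic, and their fold enrichments included the highest at any of these genes.

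The Spred2 intronic region 68.7 kb from the start (chr11:19992920-19993151, RUNX letters) had a fold enrichment of 7.40 in untreated cells, 11.7 with TGF-β and 6.46 with set 2, on 19, 31 and 20 fragments, and was not called with set 1. TGF-β was highest here, with 1.91 fragments per 1 M reads (1.29 to 2.70) against 1.24 in untreated cells (0.748 to 1.94). These intervals overlapped. With set 1, a call would have needed about 13 fragments. The intronic region at 37.0 kb (chr11:19961249-19961494) was called throughout, at 10.7, 9.67, 10.2 and 7.34, with 25 fragments in each of the first 3 libraries and 20 with set 2. The one at 55.1 kb (chr11:19979370-19979649) had 8.56, 8.88, 7.99 and 7.07 on 24, 25, 27 and 25 fragments. The Spred2 promoter region (chr11:19924000-19924200) was called in the TGF-β-treated control and under set 1, at 5.95 and 6.0 on 28 fragments each. In the libraries without a call there, about 18 fragments would have been needed in untreated cells and 20 with set 2. A region 2.87 kb upstream (chr11:19921432-19921585) was called with set 1 alone and had the lowest fold enrichment of all, 4.68.

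Phlda1 (gene start at chr10:111506286) had no region at its promoter. The larger of its 2 regions, 33.1 kb upstream (chr10:111473040-111473261), lay 73 bp from the start of Nap1l1, a nucleosome assembly protein gene, and is that gene's promoter by position. Its fold enrichment was 7.84 in untreated cells, 10.5 with TGF-β, 6.18 under set 1 and 5.94 under set 2, on 21, 32, 19 and 18 fragments. The TGF-β library was highest and both siRNA libraries were below untreated. The other region, 3.04 kb upstream (chr10:111503180-111503312), was called with TGF-β alone, at 5.71 on 18 fragments.

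Egr1 had the highest fold enrichment among the constant promoters of the 10 genes. The region over its start (chr18:34859822-34860060, middle 118 bp downstream in a UTR) had 10.8 in untreated cells, 10.5 with TGF-β, 7.48 under set 1 and 7.89 under set 2. It held 30, 27, 19 and 20 fragments, so both siRNA libraries were below both siControl libraries. Per 1 M reads these were 1.96 (1.32 to 2.80), 1.66 (1.09 to 2.41), 1.10 (0.662 to 1.72) and 0.968 (0.591 to 1.5), and the intervals overlapped. Relative to TGF-β-treated siControl, 12.3% of all regions called in both libraries had a lower ratio of fold enrichment than this region with set 1. With set 2 it was 45.8%. A second region in a UTR, at 669 bp (chr18:34860428-34860557), was called in untreated cells alone on 22 fragments. An upstream region at 9.52 kb (chr18:34850212-34850397) was called in both siControl libraries, at 8.80 and 8.81, and in neither siRNA set, where about 11 fragments with set 1 and 12 with set 2 would have been needed.

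**Figure D2:**
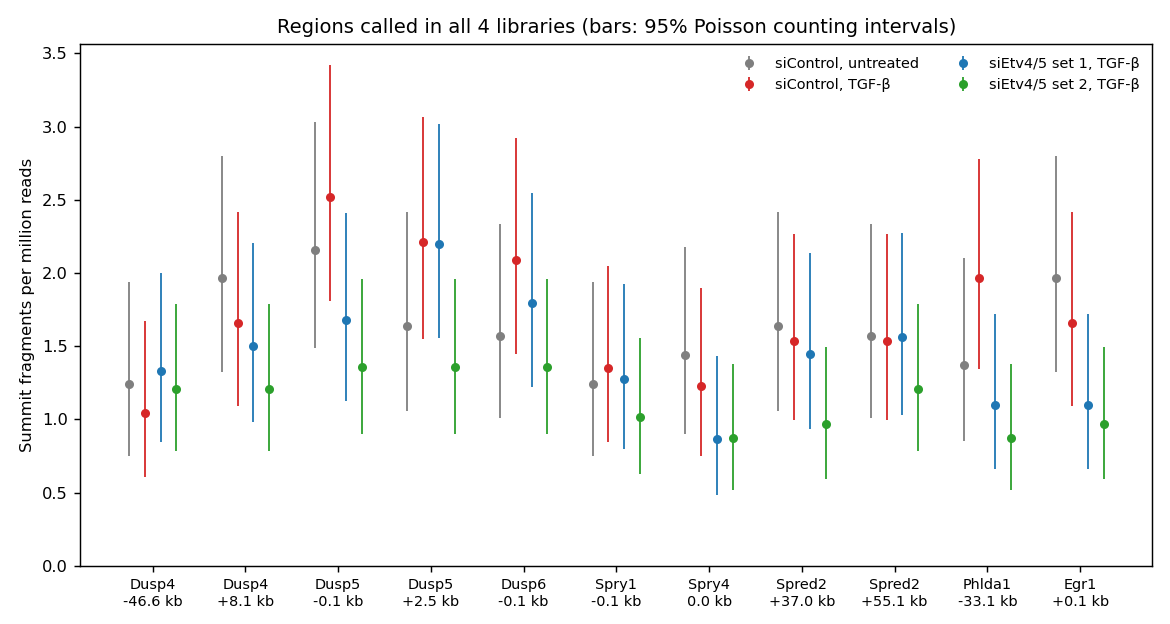
Summit fragments per 1 M reads (y axis) at the 11 regions called in all 4 libraries, named by gene and distance of the region from the gene start in kb. Points are the 4 libraries and bars are 95% Poisson intervals of the fragment count. Dusp5 at its promoter with TGF-β is the highest point, at 2.52, and the bars of the 4 libraries overlap at every region. Overlap of the bars is no test of a difference.

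The first comparison asked how TGF-β changed accessibility in siControl cells. Of 22 regions called in either library, 4 were called with TGF-β and not without it (18.2%, exact binomial interval 5.19 to 40.3), against 32.3% of all regions. They were the Dusp5 region at 42.2 kb, the Dusp6 region at 12.3 kb, the Spred2 promoter and the Phlda1 region at 3.04 kb. Another 3 were called without TGF-β only (13.6%, 2.91 to 34.9), against 12.5% of all: the Dusp6 region at 21 kb, the Spry1 region at 5.11 kb and the Egr1 region at 669 bp. Both intervals included the share over all regions.

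At the 15 regions called both with and without TGF-β, the median log2 ratio of fold enrichment was 0.02, against 0.12 over 18082 regions. Only the Spred2 region at 68.7 kb was higher by more than 1.5-fold (log2 ratio 0.66), a size reached by 5.92% of all regions, and none was lower by more than 1.5-fold, against 0.924% of all. Values at the phosphatases went both ways by region. Both constant Dusp4 regions had lower fold enrichment with TGF-β, by log2 ratios of -0.45 and -0.40, and the Dusp4 region at 9.03 kb had 0.02. The Dusp6 promoter had 0.34 and the Dusp5 intronic region at 2525 bp had 0.31, while the Dusp5 region at 3.14 kb had -0.18. The Dusp5 and Spry1 promoters had 0.11 and 0.17, and the Spry4 and Egr1 promoters -0.20 and -0.05. In summit fragments per 1 M reads, the interval of the ratio lay apart from the median of all regions at 0 of the 15, while it lay above that median at 0.807% and below it at 0.542% of the 18082.

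The second comparison asked what either siRNA set against Etv4 and Etv5 did in the presence of TGF-β, where both sets were set against the same siControl library. With set 1, 6 of 20 regions called in either library were absent (30.0%, 11.9 to 54.3), against 30.1% of all regions, and 1 of 20 was called with set 1 alone, the Spred2 region at 2.87 kb, against 10.7% of all. The 6 absent regions were the Dusp4 intronic region at 9.03 kb, the Dusp5 region at 42.2 kb, the Dusp6 region at 12.3 kb, the Spred2 region at 68.7 kb, the Phlda1 region at 3.04 kb and the Egr1 region at 9.52 kb. With set 2, 7 of 19 were absent (36.8%, 16.3 to 61.6), against 50.9% of all regions. These were the Dusp4 region at 9.03 kb, the Dusp5 regions at 42.2 kb and 3.14 kb, the Dusp6 region at 12.3 kb, the Spred2 promoter, the Phlda1 region at 3.04 kb and the Egr1 region at 9.52 kb. No region was called with set 2 and not in TGF-β-treated siControl (0 of 19, upper limit 17.6%), against 5.04% of all.

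At regions called in both libraries, the median log2 ratio was -0.03 with set 1 (13 regions), against -0.16 over 19023 regions, and -0.35 with set 2 (12 regions), against -0.38 over 13318. With set 1, the region at the Nap1l1 start upstream of Phlda1 was the only one lower by more than 1.5-fold (log2 ratio -0.76), against 6.60% of all regions, and none was higher, against 0.557%. The Egr1 promoter followed with -0.48 and the Dusp5 promoter with -0.34, while the Dusp5 region at 2525 bp and the Dusp4 region at 8.05 kb had 0.24 and 0.22. With set 2, 2 of 12 regions were lower by more than 1.5-fold, against 24.2% of all regions, namely the Spred2 region at 68.7 kb (-0.86) and the region at the Nap1l1 start (-0.82). None was higher by more than 1.5-fold, against 0.0901%. All but the Dusp4 region at 46.6 kb were lower with set 2 (11 of 12), as were 89.4% of all regions. The interval of the fragment ratio held the median of all regions at every region of the 10 genes with either set, as it did at all but 0.505% (above) and 0.547% (below) of regions with set 1, and 0.999% and 0.871% with set 2. With set 2, where that median was 0.630, the interval lay below 1 at the Dusp5 promoter (0.320 to 0.891). It also did so at the Nap1l1 start (0.234 to 0.813) and at the Spred2 region at 68.7 kb (0.274 to 0.920). At the other regions it held 1.

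**Figure D3:**
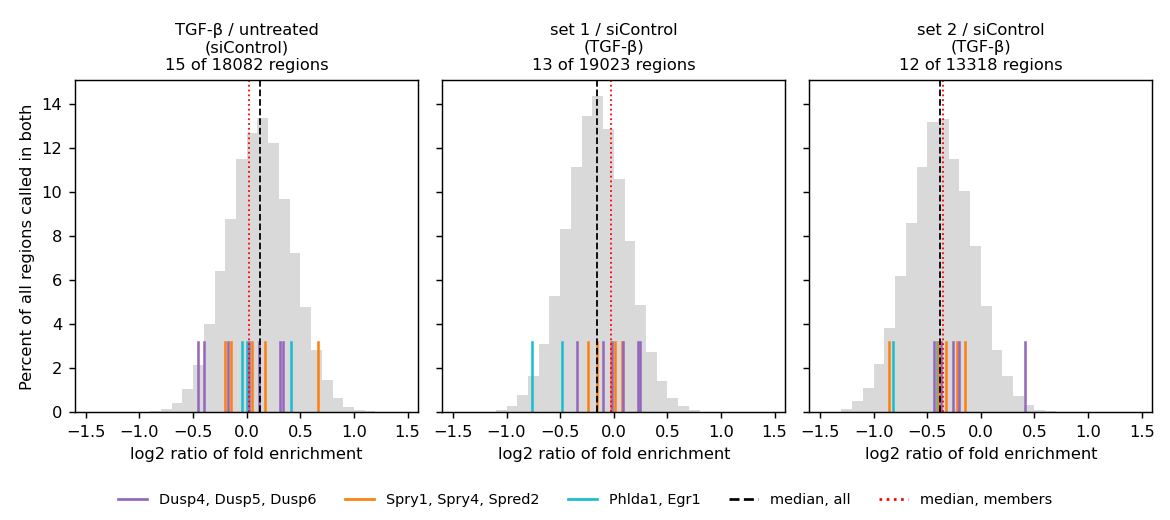
Percent of all regions called in both libraries of a pair (y axis) by log2 ratio of fold enrichment (x axis, bins of 0.1) in gray, with each region of the 10 genes as a colored line. The panels show TGF-β over untreated, and set 1 and set 2 over TGF-β-treated siControl. The red dotted median of the genes' regions and the black dashed median of all regions are 0.02 and 0.12 for TGF-β, -0.03 and -0.16 for set 1, and -0.35 and -0.38 for set 2.

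The 3 regions with ETS letters, in the forms that were searched, were read separately because Etv4 and Etv5 are ETS factors. Of them, the Dusp6 region at 21 kb was called in untreated cells alone and so has no siRNA ratio. The Dusp4 intronic region at 8.05 kb had log2 ratios of 0.22 with set 1 and -0.20 with set 2, and the Spred2 region at 55.1 kb had -0.15 and -0.33. With set 1 the medians of all regions stood at -0.16 and with set 2 at -0.38, so the Dusp4 region lay above both, and 50.9% and 56.8% of all regions were lower than the Spred2 region.

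Set against each other, the siRNA sets gave 1 of 15 regions called with set 2 alone, the Spred2 region at 68.7 kb, against 9.31% of all regions, and 3 with set 1 alone (20.0%, 4.33 to 48.1), against 40% of all. The 3 were the Dusp5 region at 3.14 kb, the Spred2 promoter and the Spred2 region at 2.87 kb. At the 11 regions called with both sets the median log2 ratio was -0.17, against -0.21 over 12536 regions, and no region passed 1.5-fold in either direction, against 9.26% (lower) and 0.223% (higher). The interval of the fragment ratio held the median of all regions at each of the 11, while it lay above that median at 0.335% and below it at 0.391% of the 12536.

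Across the 4 libraries together, no region was called in the 3 TGF-β libraries and absent in untreated cells, a pattern that 3.78% of all regions had. Another 3 were called in untreated cells alone (13.0%, against 7.72%), of which the Egr1 region at 669 bp had most fragments. Regions called in TGF-β-treated siControl and in neither siRNA set numbered 5. Of these, 3 were also absent in untreated cells (13.0%, against 16.1% of all), and 2 were called in untreated cells (8.70%, against 7.05%). The Dusp4 region at 9.03 kb and the Dusp6 region at 12.3 kb had most fragments among the 5, 24 each. A call missing only with set 2 was found at 1 region, the Dusp5 one at 3.14 kb (4.35%, against 11.6%). At a promoter of any gene, 7 of 9 regions were called in every library (77.8%, against 42.9% of all promoter regions). Away from promoters, 4 of 14 were (28.6%, against 23.1%). No interval was computed for these shares, which rest on few regions. Of the 9 regions, 7 were promoters of the 10 genes themselves. The others were the region at the Nap1l1 start and the Dusp5 region at 2525 bp, which lay 1979 bp from an antisense start. Both of these were called in every library.

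The shares moved with the lengths of the lists. With each list kept to its 14925 peaks of highest -log10 p-value, the length of the shortest one, 2 of 14 regions were absent with set 2 and 4 were called with set 2 alone, where all regions gave 25.1% and 24.8%. For TGF-β the same lists gave 4 regions gained and 6 lost of 16, where all regions gave 25.6% in each direction, and for set 1 they gave 4 of 14 in each direction, where all regions gave 23.9% in each. At equal length, more regions of the 10 genes were called with set 2 alone than in TGF-β-treated siControl alone, the reverse of the full lists.

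The rest of the pathway was counted in the same way, in lists also chosen with earlier results of these data known. The lists were 14 other feedback inhibitors (phosphatases such as Dusp1, the Ras GTPase-activating proteins Nf1 and Rasa1, the receptor inhibitors Errfi1 and Lrig1 and others), 21 genes of the cascade itself (the receptors Egfr, Erbb2 and Erbb3, adaptors, Ras, Raf, MEK, ERK and RSK genes) and 16 other ERK-induced genes (growth factor ligands such as Areg, Ereg and Hbegf, and immediate-early genes such as Egr2, Egr3 and Ier2). The other feedback inhibitors had 72 regions, of which 37.5% were called in every library, the cascade had 79 (32.9%) and the other ERK-induced genes 69 (36.2%). A promoter region was present at 12 of 14, 16 of 21 and 10 of 16 genes, against 6 of the 10 genes and 42.5% of protein-coding genes. One called in every library was present at 5, 6 and 4, against 23.1% of protein-coding genes. The windows of the 3 lists held 5.02, 3.33 and 7.46 regions per 100 kb in the same order, against 3.18 at the 10 genes. In the share of regions called in every library, all 3 lists lay between the 47.8% of the 10 genes and the 29.6% of all regions.

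With TGF-β, regions gained in siControl numbered 20 of 67 at the other feedback inhibitors (29.9%), 17 of 76 at the cascade (22.4%) and 16 of 62 at the other ERK-induced genes (25.8%), and regions lost 3 (4.48%), 13 (17.1%) and 6 (9.68%). Among regions of either library, set 1 lacked 18 of 67 (26.9%), 22 of 68 (32.4%) and 13 of 61 (21.3%), and set 2 lacked 32 of 66 (48.5%), 28 of 66 (42.4%) and 28 of 62 (45.2%). The median log2 ratios of fold enrichment for TGF-β were 0.23, 0.07 and 0.00 in the same order. They were -0.28, -0.18 and -0.04 with set 1 and -0.39, -0.32 and -0.40 with set 2. The other feedback inhibitors were thus above the median of all regions with TGF-β (0.12) and below it with set 1 (-0.16), where the 10 genes had 0.02 and -0.03.

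**Figure D4:**
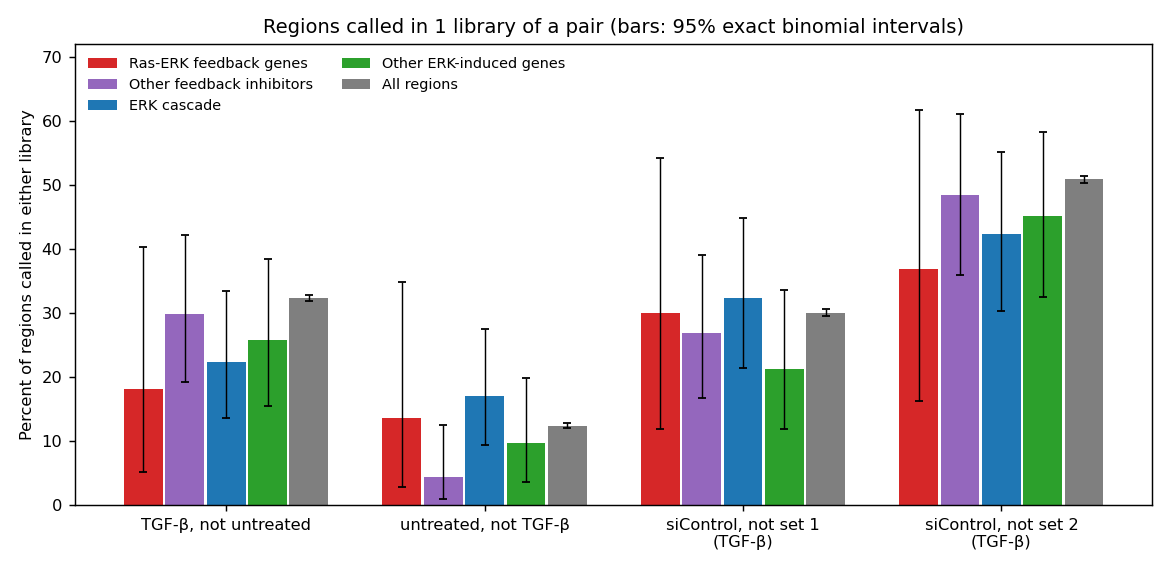
Percent of regions called in 1 library of a pair and not the other (y axis), among those called in either, for the 10 Ras-ERK feedback genes, the 3 other lists of pathway genes and all regions. Bars are shares and whiskers are 95% exact binomial intervals. For regions of siControl absent with set 2 the values run from 36.8% at the feedback genes to 50.9% of all regions, and the whisker of the feedback genes spans 16.3 to 61.6.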

How the data were processed

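FAIRE-seq had been done in EpRas cells at day 4 in 4 groups of 1 peak list each. The study describes biological replicates, which the lists may combine. The authors mapped Ion Proton reads to mm10 and kept MACS2 peaks under a q-value of 0.0001 (the submitters' processing notes name Bowtie and MACS2 2.1.0). Per the file columns, the authors deposited for each peak a fold enrichment (a ratio to local background), the summit's -log10 p-value, its -log10 q-value, a score made from the q-value, and the summit position.

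Summit fragments and background were solved from the deposited fold enrichment, with a pseudocount of 1, and the Poisson -log10 p-value. They came out whole, within 0.05, in 100% of peaks of each library. The solver was tested on data simulated with the formula that it inverts, which checks the inversion and not whether the deposited values follow that formula. Depth was the background floor times 1.87 Gb over the shortest peak width. The fragments a call would have needed come from the same Poisson limit at the background of the place, taken from the libraries with a call.

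Genes and starts came from GENCODE M21 basic on GRCm38, and sequences were read by coordinates from the GRCm38 assembly of RefSeq. All 88414 nuclear peaks lay inside its chromosomes. Promoter regions had their middle within 2 kb of an annotated start, and distances run to the middle of the region. Where a region held several peaks of 1 library, the strongest stood for it. Shares of regions called in 1 library of a pair have 95% exact binomial intervals, and other shares have none. Fragment counts have 95% exact Poisson intervals, and ratios of fragments exact intervals. Calls meant presence in 1 library of a pair, or more than 1.5-fold in fold enrichment. For each gene, its promoter region and its other region of highest fold enrichment were described in full, and for each pattern of calls the region with most fragments was named. The genes and lists were chosen with earlier results of these data known. Spry3 was in none of the annotated genes used and was not analysed here. Alternatives covered the threshold, list length, window, overlap, scale and motif window. Python 3.11.15, scipy 1.17.1 and pysam 0.24.0 were used.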

Additional observations from a re-analysis of the deposited data

How the results depend on the processing

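Of 66 values recomputed under the alternatives, 54 stayed within the limits set for a move and 12 moved. A value within the limits could still change. At equal list length the peaks at the 10 genes went from 18 to 12 in untreated cells and from 14 to 10 with set 1, and neither counted as a move. The balance of calls turned at equal list length, from 4 regions gained and 3 lost with TGF-β to 4 and 6, and from 0 gained and 7 absent with set 2 to 4 and 2. No value moved at a q-value limit 100 times stricter, with an overlap of 50% of the shorter peak, at regions called in all 4 libraries, or for motifs in 200 bp. With lists of equal length, peaks at the 10 genes in TGF-β-treated siControl numbered 10 (19 in the full list), and 4 regions were gained with set 1 (4 of 14, against 23.9% of all regions) and 4 with set 2 against set 1 (4 of 14, against 24.2%). For set 2 against TGF-β-treated siControl the shares of all regions were 24.8% gained and 25.1% absent. With 50 kb added downstream, the genes held 28, 32, 23 and 19 peaks for untreated cells, TGF-β, set 1 and set 2, since more sequence was counted. With 10 kb upstream in place of 50 kb, where less sequence was counted, 2 of 17 regions were gained with TGF-β, against 32.3% of all regions. In fragments per 1 M reads the median log2 ratio of TGF-β changed sign, from 0.02 to -0.01, with 0.13 over all regions, and the median log2 ratio of set 2 was -0.65, with -0.67 over all regions. The causes of the moves at equal list length were not tested. No paired analysis was possible because each group holds 1 list, and for the same reason no replicate could be left out. The summits at these genes held 15 to 41 fragments, so differences smaller than the counting intervals were not detectable at this depth.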
